A study of Mus musculus with 4 samples.

Results

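The infarct zone (IZ) was compared with the remote zone (RZ) of the same heart section, gene by gene and pathway by pathway, in 3 infarcted mouse hearts. Zones were drawn from the share of 12 cardiomyocyte genes (Myh6, Tnnt2, Tnni3, Actc1, Myl2, Myl3, Pln, Mb, Ckm, Tcap, Ryr2 and Ttn) in the UMIs of a spot, mitochondrially encoded genes left out. A UMI (unique molecular identifier) stands for 1 captured RNA molecule. A spot under tissue with at least 500 UMIs was put in the IZ when this share was below 0.5 times the 90th percentile of its own section and the spot lay in a connected patch of at least 10 such spots. Remote spots were all others that lay more than 4 steps of the spot grid from any IZ spot. Of 5909 kept spots in 4 sections, 4743 came from infarcted hearts and 3792 were compared, namely 2651 IZ spots (886 at 3 days post-infarction (dpi), 1081 and 684 in the 5 dpi sections) and 1141 RZ spots (397, 210 and 534).

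The hearts came from Collagen1a1-GFP mice aged 8 to 12 weeks, which carry a green fluorescent reporter driven by a type I collagen promoter, and controls carried it too. Infarction was made by tying the left anterior descending coronary artery. One fresh-frozen section of 10 µm was placed on a Visium array per heart: 1 uninjured control, 1 heart at 3 dpi and 2 at 5 dpi, 1 labelled female and 1 labelled male. A spot is a small region that can hold several cells of different types, or parts of them, and spots of 1 section are not replicates. The sex labels went against 4 Y-linked genes, which gave 718 UMIs under the female label at 5 dpi and 1 UMI under the male label, so both are named by their labels only. The control had no IZ (1 spot was below its limit) and entered no test, and its values are given as background. With 1 heart at 3 dpi, the 3 hearts were treated as replicates of the contrast between zones, and all values in threes follow the order 3 dpi, 5 dpi labelled female, 5 dpi labelled male.

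As background, ligation of a coronary artery kills the muscle downstream of it within hours, and dead cardiomyocytes are cleared by neutrophils and then by macrophages that digest them in lysosomes. Over the same days resident fibroblasts divide, turn into matrix-secreting and contractile cells and lay down collagen in place of the muscle. Adult heart muscle burns mainly fatty acids in very many mitochondria, while leukocytes and fibroblasts lean more on glucose and on biosynthesis, so loss of muscle and arrival of other cells both change the pathways read from a region.

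IZ spots were chosen by the measured share of the 12 genes, so these values are a description, with no test. The limit on the share of the 12 genes was 5.28%, 4.31% and 4.64%. The spots just inside the limit had 5.28%, 4.27% and 4.62%, those just outside 5.28%, 4.33% and 4.64%, and 131, 60 and 51 spots lay within 0.1 times the limit on either side of it. The median IZ spot held 2.12%, 0.187% and 0.265% of its UMIs in these genes, the median RZ spot 10.2%, 9.13% and 8.41%. Summed over spots the share was 10.1% in the control, so the RZ (9.67%, 8.99% and 8.17%) lay close below the uninjured heart. Each IZ was 1 patch. In the RZ, 5, 9 and 1 spots were below the limit but in patches too small for the IZ.

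**Figure D1:**
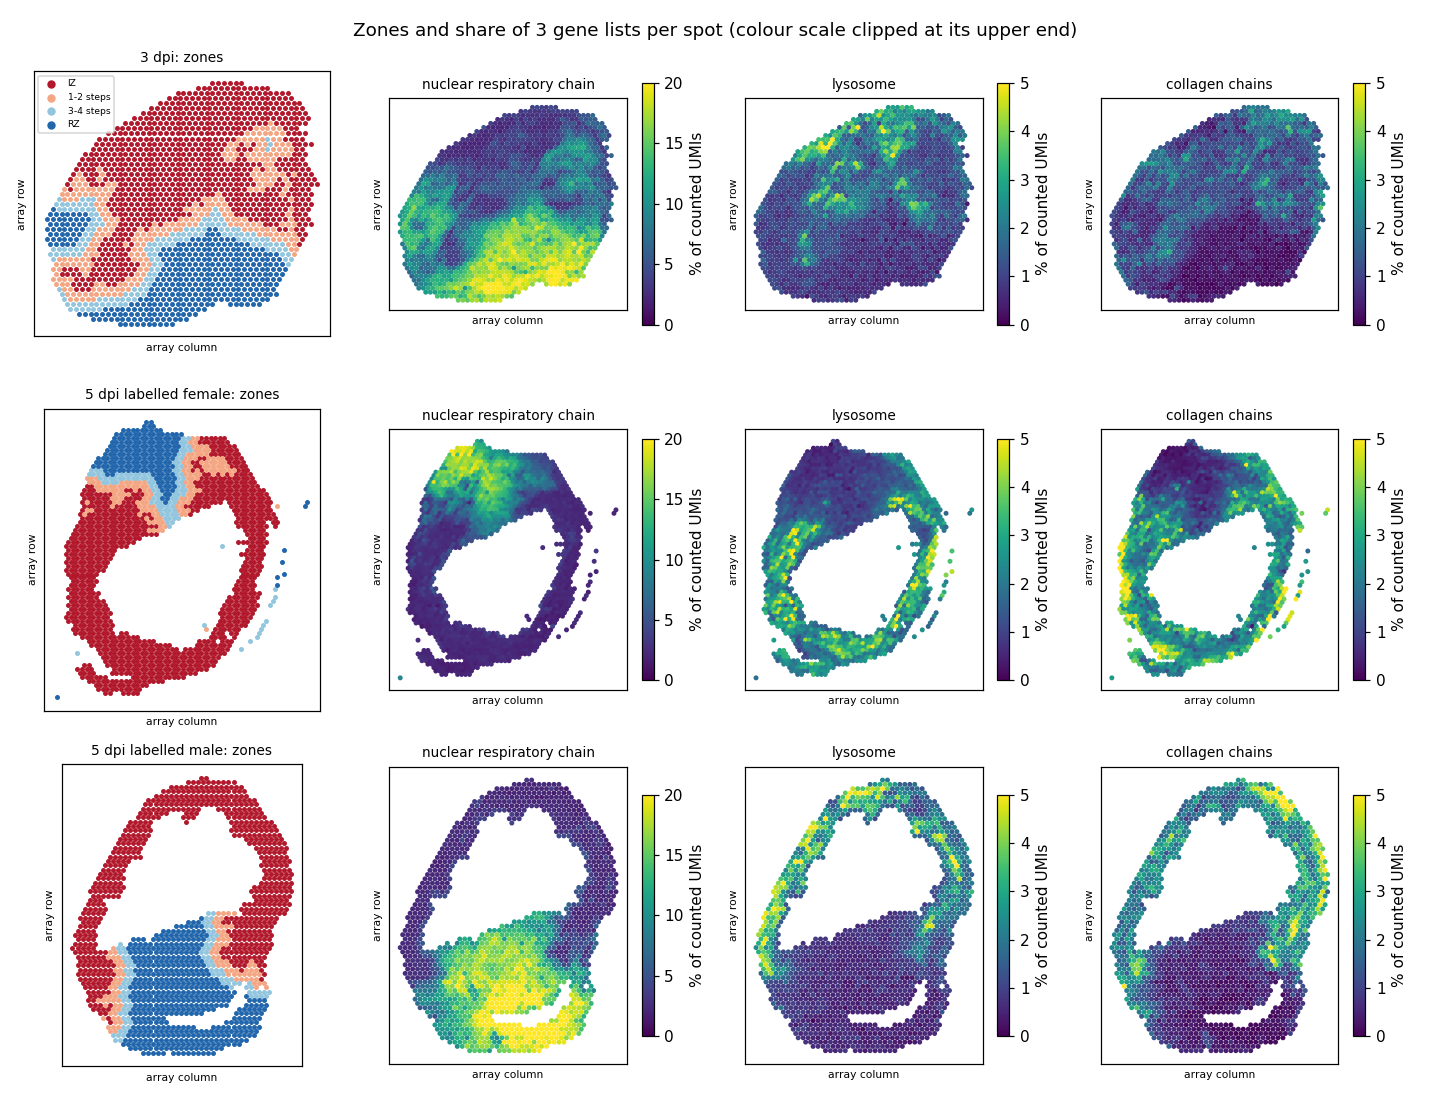
Each dot is a Visium spot of an infarcted section (rows, from top: 3 dpi, 5 dpi labelled female, 5 dpi labelled male), placed by its array row and column. The left column shows the zones and the others the share of a spot's counted UMIs in the nuclear respiratory chain, lysosome and collagen lists, so that the IZ is dark in the first (medians 4.67%, 2.46% and 2.58%) and bright in patches in the others.

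The 12 genes and the 13 mitochondrially encoded genes were left out of all totals, levels and tests below. Levels (CPM) are scaled to the total of the remaining UMIs in each sum, as parts of 1000000, and fold changes are log2 ratios of IZ over RZ from a paired fit, given ± standard error (n = 3 sections). This error is derived from the test statistic, whose variance is moderated over all genes, so it is not the spread of that gene alone. Of 11434 genes tested by the quasi-likelihood test of edgeR, adjusted after Benjamini and Hochberg, 5179 (45.3%) passed an adjusted p of 0.05. Of these, 2567 (22.5%) were higher and 2612 (22.8%) lower in the IZ, and the median fold change over all genes was 0.07 on the log2 scale. These percentages are the background against which every list below is to be read, though the lists were chosen with earlier results of these data known. Where zones are said to overlap or not, this describes the levels, and the share of all genes without overlap is not given. TMM scaling, which assumes that most genes do not change, lowered the median by 0.32 (log2), and as UMIs per spot the median over all genes was 1.17 (log2). A change of scale moves all genes together, so list medians are also given less the median of all genes on the same scale. Calls were also made without TMM, with DESeq2, without the section as a block, with the RZ begun beyond 8 steps from the IZ, with an IZ limit of 0.3 times the percentile, and without each section in turn. Without it 69.4% of called genes were higher, against 49.6% with it.

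Over all genes, IZ spots held 6276, 7467 and 7315 UMIs on average against 5668, 7274 and 6423 in the RZ and 5463 in the control, a ratio of IZ to RZ of 1.11, 1.03 and 1.14. Without the mitochondrially encoded genes and the 12 genes of the rule, the counted UMIs per spot were 5534, 7029 and 7012 against 3173, 3750 and 4278 in the RZ and 2929 in the control, so that most of the gap in counted UMIs was offset by the genes left out. A gene lower in the IZ is therefore lower as a share of the counted UMIs, and counts per spot are read beside these totals. Of the 2612 lower genes, 1103 (42.2%) also had fewer UMIs per spot in 3 of 3 sections, and 698 had more UMIs per spot in 3 of 3 sections, whereas all 2567 higher genes had more UMIs per spot in 3 of 3 sections. Fewer cells of a type and less RNA per cell cannot be told apart in such sums. Mitochondrially encoded genes held 9.98%, 5.17% and 3.30% of IZ UMIs against 38.0%, 43.4% and 27.5% in the RZ and 40.3% in the control.

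In total 49 gene lists in 6 themes were read. Matrix and immune lists lay above the median of all genes, lists of muscle and of mitochondrial energy metabolism below it, and lists of biosynthesis, the proteasome apart, above it.

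**Figure D2:**
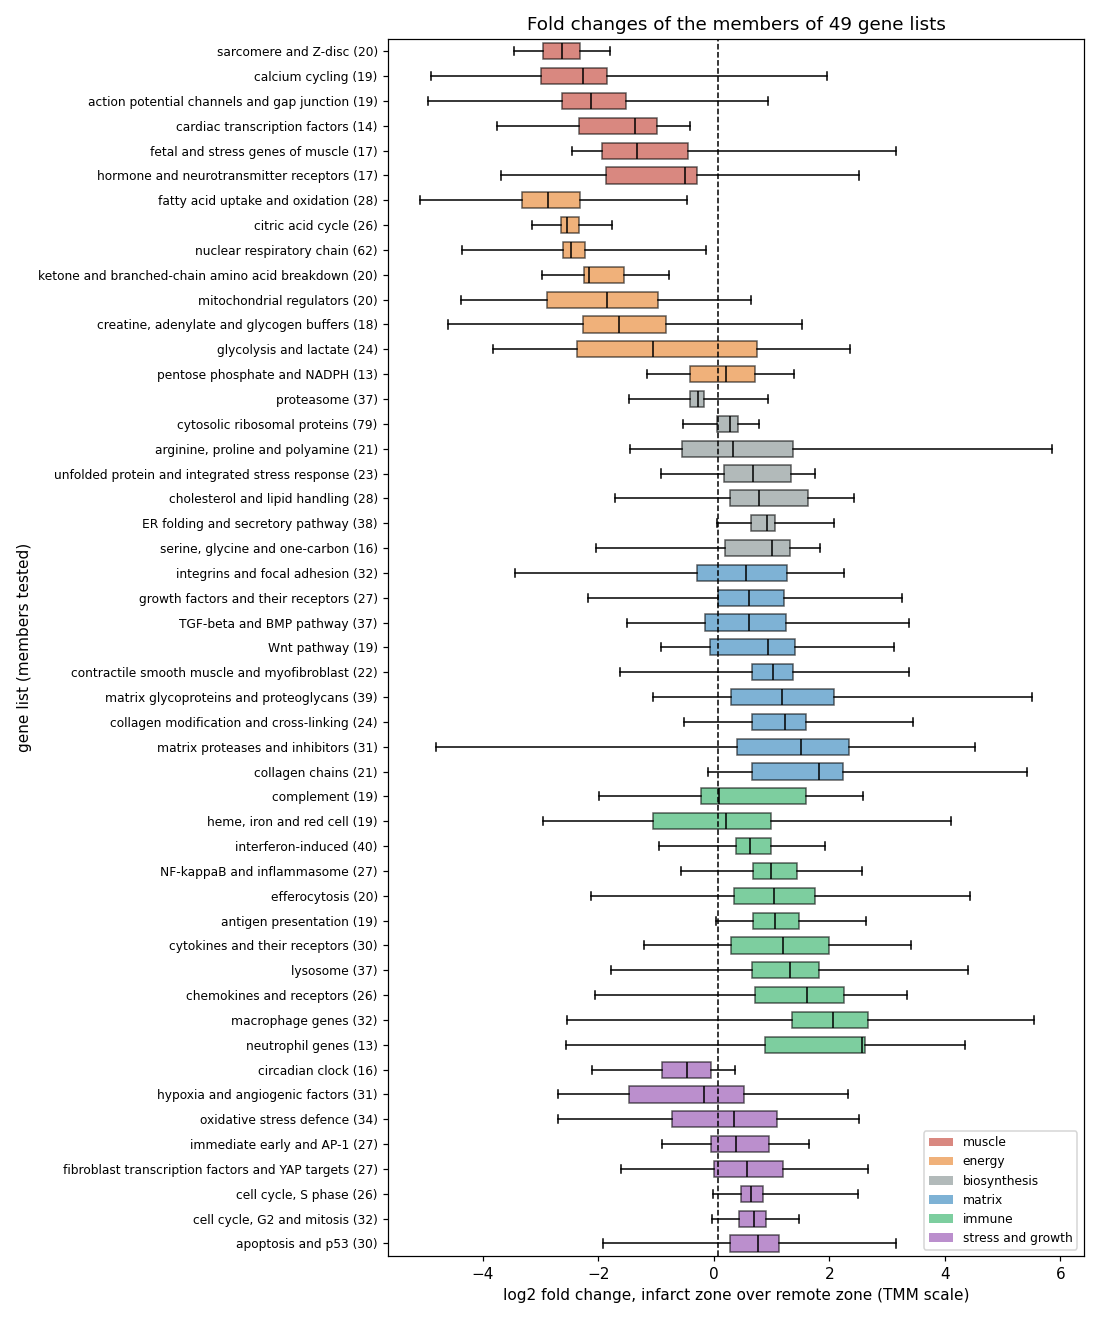
Boxes show the log2 fold change of IZ over RZ for the tested members of each of 49 gene lists (quartiles, black median, whiskers to the lowest and highest member; the number tested is in brackets), coloured by theme. The dashed line marks the median of all 11434 genes, 0.07, and 3 genes with no UMI in any RZ are drawn at their lower bound.

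Since the IZ was chosen for a low share of heart muscle genes, the choice favours low values of other genes of the same cells. The muscle and mitochondrial lists are therefore given as a description of the zone, with no p-value for their lower genes. Their counts use the threshold of the fit, but a count of lower genes there is no test, since the choice of zone favours it. In the other lists too the choice favours low values of genes that heart muscle expresses, and every gene said to have fallen passed the threshold. A p-value is printed for higher genes alone, but these p-values are not free of the choice either. Levels are shares of a total, so choosing spots poor in muscle genes also favours high values of genes of other cells. The printed p-values therefore describe how steady a difference between the chosen zones was over the sections. They cannot separate it from the choice of zone. All 20 tested sarcomere and Z-disc genes (of 21 listed) were lower, by a median of -2.63 (log2). Myoz2, which tethers calcineurin to the Z-disc, was lowest (log2 fold change -3.46 ± 0.26) and Pdlim5, a Z-disc adaptor found in other tissues too, highest (log2 fold change -1.79 ± 0.25). Tpm1, tropomyosin, stood at 13190.3, 13077 and 13526 CPM in the RZ and 4608, 2441 and 3044 CPM in the IZ. Its lowest level was in the section labelled female, and that of 3 dpi was the highest of the 3 IZ values, as it was for most muscle genes.

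Of 19 calcium cycling genes 17 were lower and 1 higher (median -2.26). Atp2a2, the calcium pump of the sarcoplasmic reticulum, read 9273 CPM in the control and 7616, 6353 and 4973 CPM in the RZ. In the IZ it read 1483, 491 and 467 CPM (log2 fold change -3.47 ± 0.27), so the zones did not overlap and the RZ values lay below the control. Hrc, a histidine-rich calcium-binding protein of the same store, had the lowest fold change of the list (log2 fold change -4.89 ± 0.28). The higher gene was Fkbp1b, a ryanodine receptor partner (2.38, 2.54 and 2.19 CPM in the RZ and 6.93, 11.1 and 14.8 CPM in the IZ). Fkbp1b (1.48) did not pass without the 5 dpi section labelled male (log2).

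Among channels, pumps and the gap junction 18 of 19 were lower (median -2.13). Kcnip2, an accessory subunit of the channels of the fast transient outward current, was lowest (log2 fold change -4.95 ± 0.27), and Gja1, the gap junction protein connexin 43, fell less (log2 fold change -1.74 ± 0.21). The sodium pump subunit Atp1b1, which most cells use, was lower by the least among the members called (log2 fold change -0.93 ± 0.22). Of 14 cardiac transcription factors 13 were lower, from Hopx (log2 fold change -3.76 ± 0.23) and Nkx2-5 (log2 fold change -1.95 ± 0.17) to Gata4 (log2 fold change -1.42 ± 0.17) and Gata6 (log2 fold change -0.73 ± 0.16). Tbx20 did not pass (log2 fold change -0.41 ± 0.16). Atp1b1 (-0.76) did not pass without the 5 dpi section labelled female (log2). Gata6 did not pass without TMM.

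Hormone and neurotransmitter receptors split. The alpha-1B adrenergic receptor Adra1b (34.9, 22.9 and 32.4 CPM in the RZ, 5.30, 1.84 and 1.88 CPM in the IZ), the angiotensin receptor Agtr1a (-3.08 log2), the beta-1 receptor Adrb1 (-2.22 log2) and the insulin receptor Insr (-1.86 log2) were among 8 lower genes of 17. The adenosine receptor Adora2b was the 1 higher gene, at 1.59, 1.27 and 1.31 CPM in the RZ and 10.8, 8.42 and 10.4 CPM in the IZ (log2 fold change 2.51 ± 0.45, adjusted p = 7.1e-04). Genes at such RZ levels, here and below, rest there on very few UMIs, so the size of their fold changes is uncertain. The list median was -0.50 (log2), or -0.57 once the median of all genes was taken off, and as UMIs per spot that difference was -0.74. Grk5, a kinase that silences receptors (log2 fold change -0.14 ± 0.19), and Ace, the angiotensin-converting enzyme (log2 fold change -0.39 ± 0.18), did not pass.

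Every tested gene of the citric acid cycle (26 of 26) and all but 1 of the nuclear-encoded respiratory chain (61 of 62) and of fatty acid uptake and oxidation (27 of 28) were lower in the IZ. Their medians were -2.54, -2.47 and -2.87 (log2). Summed over its genes, the respiratory chain held 206505 CPM in the control and 162288, 147344 and 166704 CPM in the RZ. In the IZ it held 46336, 29493 and 32274 CPM, less than in any RZ. Cox6c, a subunit of cytochrome oxidase, read 6768, 6019.9 and 8077 CPM in the RZ and 2010.3, 1342 and 1582 CPM in the IZ. Per section the list medians for fatty acid oxidation were -2.28, -2.71 and -2.51 (log2 CPM ratio), a scale on which the median gene read 0.36, 0.25 and 0.39 because it carries no TMM scaling.

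Fatty acid genes were lower at each step of the path. Lpl, the lipase that frees fatty acids from blood lipoproteins, read 3018, 2820.1 and 1809 CPM in the RZ and 456, 223 and 159.7 CPM in the IZ (log2 fold change -3.61 ± 0.23). Cd36, the uptake receptor that macrophages and capillaries also carry, was lower by less (log2 fold change -2.12 ± 0.20). Fabp3, the binding protein that moves fatty acids through the muscle cytosol, read 9647 CPM in the control, 8491, 6430.02 and 10372 CPM in the RZ and 1175, 348 and 588 CPM in the IZ (log2 fold change -4.05 ± 0.30). Neither gene overlapped between zones. Acsl1, which activates fatty acids with coenzyme A (log2 fold change -3.73 ± 0.21), Acadm, the medium-chain dehydrogenase (log2 fold change -3.38 ± 0.20), and Plin5, which docks lipid droplets to mitochondria (log2 fold change -4.74 ± 0.28), were lower by more than the list median. Slc27a1, a fatty acid transporter of many tissues, was the 1 member not past the threshold (log2 fold change -0.47 ± 0.18). Plin5 (to -5.41) moved by over 1.5 times, as a fold, without the 3 dpi section (log2).

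In the citric acid cycle the range was narrow, from Idh2, mitochondrial isocitrate dehydrogenase (log2 fold change -3.14 ± 0.19), to Suclg2, the GTP-forming subunit of succinyl-CoA ligase (log2 fold change -1.76 ± 0.18). Mdh1, cytosolic malate dehydrogenase, read 2193, 1701 and 2459 CPM in the RZ and 551, 269 and 316 CPM in the IZ. Ketone and branched-chain amino acid breakdown followed, with 20 of 20 lower (median -2.16), led by Bdh1, which oxidizes the ketone body beta-hydroxybutyrate (log2 fold change -2.98 ± 0.23). Oxct1, which activates ketone bodies, read 726, 750.4 and 624 CPM in the RZ and 239.7, 157 and 164 CPM in the IZ. Acad8, a dehydrogenase of valine breakdown, was lower by the least (log2 fold change -0.78 ± 0.18). Acad8 did not pass without TMM or with the RZ beyond 8 steps.

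Regulators of mitochondria were lower in 16 of 20 (median -1.84). Ppargc1a, the coactivator PGC-1alpha, read 36.3 CPM in the control, 23.02, 34.3 and 25.8 CPM in the RZ and 3.47, 1.58 and 2.50 CPM in the IZ (log2 fold change -3.78 ± 0.33). These zones did not overlap. Perm1, a muscle-restricted partner of PGC-1alpha, had the lowest fold change (log2 fold change -4.38 ± 0.33), Pink1, a kinase that marks damaged mitochondria, read 429, 336 and 281 CPM in the RZ and 81.8, 76.7 and 82.98 CPM in the IZ, and the estrogen-related receptors Esrra (-1.70), Esrrb (-3.002) and Esrrg (-3.23) were all lower (log2). General factors were nearer to the median of all genes, such as the mitochondrial DNA packaging factor Tfam (log2 fold change -1.07 ± 0.17), the mitochondrial RNA polymerase Polrmt (log2 fold change -0.82 ± 0.22) and Gabpa (log2 fold change -0.30 ± 0.22, not past the threshold). Polrmt (-0.76) did not pass without the 5 dpi section labelled female, nor did Polrmt (-0.77) without the 5 dpi section labelled male (log2). Esrrb (to -3.99), Esrrg (to -4.02) and Perm1 (to -5.24) moved by over 1.5 times, as a fold, without the 3 dpi section (log2). Polrmt did not pass without TMM, with DESeq2 or with the RZ beyond 8 steps.

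Estrogen-related receptors bind a half-site that was searched, as the letters TCAAGGTCA on either strand, in the RefSeq promoters (250 bases before to 50 after the start, build GRCm38.p6). It was found in 126 of 27025 promoters (0.466%). Of the 4 mitochondrial lists it was found in 0 of 24 promoters of fatty acid genes, 0 of 20 of regulators, 1 of 23 of the citric acid cycle and 1 of 50 of the respiratory chain. The 2 promoters with a match are shown as the only ones in these lists: those of Atp5g3, a subunit of the ATP synthase ring (log2 fold change -2.94 ± 0.23), at chr2:73911277-73911576, and Sdhd, the membrane anchor of succinate dehydrogenase (log2 fold change -2.18 ± 0.21), at chr9:50603800-50604099, both on the minus strand. Capitals mark the match, which lies on the opposite strand in both.
Atp5g3: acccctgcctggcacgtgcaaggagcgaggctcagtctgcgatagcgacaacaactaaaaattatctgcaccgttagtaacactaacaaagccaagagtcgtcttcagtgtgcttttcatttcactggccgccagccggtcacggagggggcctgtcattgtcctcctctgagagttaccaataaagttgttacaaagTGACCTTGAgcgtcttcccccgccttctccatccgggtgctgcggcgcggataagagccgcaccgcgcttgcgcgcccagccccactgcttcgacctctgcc
Sdhd: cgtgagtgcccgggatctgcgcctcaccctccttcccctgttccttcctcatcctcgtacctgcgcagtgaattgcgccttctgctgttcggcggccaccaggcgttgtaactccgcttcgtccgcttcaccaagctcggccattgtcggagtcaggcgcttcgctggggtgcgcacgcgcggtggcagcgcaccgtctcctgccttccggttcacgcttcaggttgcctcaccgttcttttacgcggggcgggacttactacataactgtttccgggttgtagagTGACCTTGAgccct
A match is only these letters within this window, and no binding was measured.

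Several subunits of the respiratory chain have a muscle form and a form of other tissues. Cox6a2, the heart and skeletal muscle form of a cytochrome oxidase subunit, read 7737, 7057 and 8045 CPM in the RZ and 1041, 351 and 380.5 CPM in the IZ, while Cox6a1, its counterpart elsewhere, read 548, 533 and 587 CPM and 722, 605 and 570.00 CPM. The first did not overlap between zones and the second did. The fold changes were -4.19 and -0.13 (log2). Further pairs were Cox8b (-4.36) beside Cox8a (-0.47), Cox7a1 (-4.07) beside Cox7a2 (-2.17), and Slc25a4, the muscle ADP/ATP carrier (-3.35), beside Slc25a5 (-0.66). Cox8a (-0.59) and Slc25a5 (-0.69) did not pass without the 5 dpi section labelled female, nor did Cox8a (-0.36) and Slc25a5 (-0.53) without the 5 dpi section labelled male (log2). Cox8a did not pass without TMM or without the block, nor did Slc25a5 without TMM.

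In sugar metabolism the 2 forms often lay on opposite sides, but not in each pair. Ldhb (-3.29) and Ldha (-1.13) were both lower, and beside Pfkm (-3.12, lower) Pfkp did not pass (-0.46, log2). Slc2a4, the insulin-regulated glucose transporter GLUT4, read 346, 291 and 242 CPM in the RZ and 48.95, 16.5 and 19.6 CPM in the IZ (log2 fold change -3.82 ± 0.24), and Slc2a1, the general transporter GLUT1, 14.3, 24.1 and 24.1 CPM and 55.5, 44.3 and 41.9 CPM (log2 fold change 0.84 ± 0.23, adjusted p = 0.011). Neither overlapped. Eno3, muscle enolase, was lower (-3.76) and Eno1 higher (log2 fold change 1.34 ± 0.18, adjusted p = 6.1e-05). Pgam2 was lower (-3.48) and Pgam1 higher (log2 fold change 0.73 ± 0.17, adjusted p = 0.0035). The lactate carrier of oxidative tissue Slc16a1 was lower (-3.09), and Slc16a3, the carrier of glycolytic cells, rose from 6.35, 10.2 and 9.19 CPM to 58.5, 53.2 and 53.4 CPM, against 1.76 CPM in the control (log2 fold change 2.36 ± 0.23, adjusted p = 5.6e-06). No IZ value of Slc16a3 was as low as an RZ value. In all 15 pairs compared the muscle or oxidative-tissue gene had the lower ratio in 3 of 3 sections; the pairs were chosen after their values were seen, and the differences were not tested. Slc2a1 (0.49) did not pass without the 3 dpi section, nor did Pgam1 (0.62) without the 5 dpi section labelled female (log2). Slc16a1 (to -3.69) moved by over 1.5 times, as a fold, without the 3 dpi section (log2). Slc2a1 did not pass with the limit of 0.3.

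**Figure D3:**
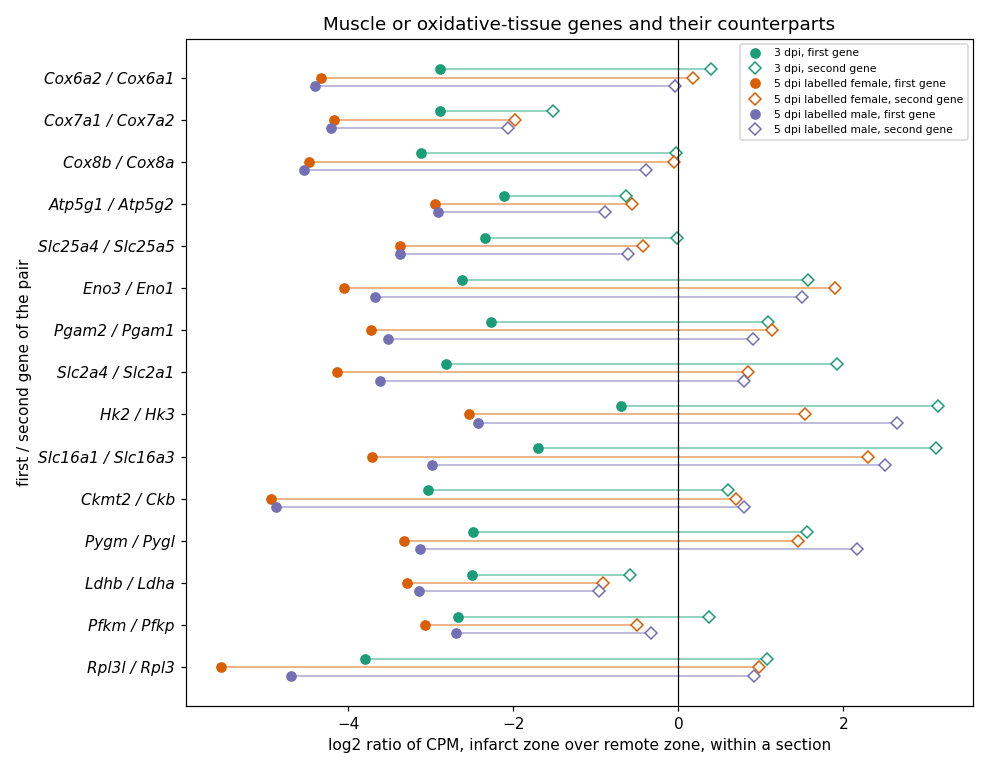
For 15 pairs of genes with a like function, the log2 ratio of CPM between IZ and RZ is shown within each section (colour), with filled circles for the gene of muscle or oxidative tissue and open diamonds for its counterpart. Each circle lies to the left of its diamond, for example at -4.19 and -0.13 in the fit for Cox6a2 and Cox6a1.

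Over the whole glycolysis list 15 of 24 genes were lower and 7 higher, with a median of -1.05 (log2). Less the median of all genes it was -1.11, and -1.06 as UMIs per spot. Gapdh, often used as a reference gene, read 5309, 5301 and 6819.7 CPM in the RZ and 3592, 2981 and 3363 CPM in the IZ (log2 fold change -1.12 ± 0.20), without overlap. Pfkfb3, which makes the activator of phosphofructokinase, rose (log2 fold change 2.28 ± 0.32, adjusted p = 9.2e-05), as did Hk3, the hexokinase of myeloid cells (log2 fold change 2.31 ± 0.34, adjusted p = 1.5e-04). Creatine, adenylate and glycogen genes were lower in 15 of 18, down to mitochondrial creatine kinase Ckmt2 (log2 fold change -4.60 ± 0.37). The 1 higher gene was Pygl, the liver and leukocyte glycogen phosphorylase (log2 fold change 1.53 ± 0.27, adjusted p = 5.9e-04), beside the muscle form Pygm (-3.29 log2). Ckb, the brain form of creatine kinase (log2 fold change 0.39 ± 0.16), and Ampd3, an adenylate deaminase (log2 fold change -0.50 ± 0.21), did not pass. Ckmt2 (to -5.23) moved by over 1.5 times, as a fold, without the 3 dpi section (log2).

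In the pentose phosphate list 5 of 13 genes rose and 3 fell, the latter a share near that of all genes. The risers included G6pdx, the entry enzyme (log2 fold change 1.21 ± 0.23, adjusted p = 9.9e-04), Pgd, the next NADPH-forming dehydrogenase (log2 fold change 1.40 ± 0.18, adjusted p = 4.2e-05), and Tkt, transketolase (log2 fold change 1.39 ± 0.17, adjusted p = 2.9e-05). Me1, malic enzyme, fell (log2 fold change -1.16 ± 0.16). Pgls, which opens the lactone between G6pdx and Pgd, did not pass (log2 fold change -0.27 ± 0.16). For pentose phosphate and NADPH genes the count called higher was 3 without the 5 dpi section labelled female, against 5 by edgeR with all sections.

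Of fetal and stress genes of muscle, 11 of 17 were lower and 3 higher (median -1.34), but the section medians were 0.08, -1.48 and -1.305 (log2 CPM ratio), below the median gene in each section and furthest below it at 5 dpi. Ankrd1, a stretch-induced titin partner, read 489 CPM in the control and 1951, 3122 and 2723 CPM in the RZ. In the IZ it read 2067, 625 and 894 CPM, so that its zones overlapped through the 3 dpi heart alone (log2 fold change -1.61 ± 0.36). Nppa, atrial natriuretic peptide, read 4802, 6138 and 6590.4 CPM in the RZ and 11897, 6735 and 10207 CPM in the IZ and did not pass the threshold (log2 fold change 0.38 ± 0.24; -0.73 with an IZ limit of 0.3 times the percentile). Sprr1a, a small proline-rich protein that injured heart and nerve switch on, read 104.8, 78.7 and 95.9 CPM and 898, 713 and 1589.7 CPM (log2 fold change 3.15 ± 0.22, adjusted p = 8.4e-07), without overlap. The secreted stress factor Gdf15 rose as well (log2 fold change 1.91 ± 0.20, adjusted p = 1.2e-05). Csrp3, a stretch sensor of the Z-disc, was lowest (log2 fold change -2.46 ± 0.36). Ankrd1 (to -2.28) and Csrp3 (to -3.10) moved by over 1.5 times, as a fold, without the 3 dpi section (log2). Ankrd1 did not pass with DESeq2.

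Spots between the zones were read for the same lists, without a test, as the summed level over that of the RZ. At 3 to 4 steps from the IZ the fatty acid list stood at -0.39, -0.50 and -0.33 (log2), at 1 to 2 steps at -0.86, -0.99 and -0.73, and in the IZ at -2.43, -3.09 and -3.09. Levels were thus below the RZ already outside the IZ. The sarcomere list at 1 to 2 steps was lower by less, at -0.26, -0.38 and -0.21. Fetal and stress genes had their peak at 1 to 2 steps, at 0.91, 1.05 and 1.08, and in the IZ stood at 0.37, -0.76 and -0.24. Collagen chains climbed in steps, 0.57, 0.96 and 0.67 then 1.03, 1.25 and 1.21 then 1.69, 2.16 and 2.42, and macrophage genes stood at 0.85, 0.54 and 0.48 at 1 to 2 steps before reaching 2.29, 2.51 and 2.61 in the IZ.

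**Figure D4:**
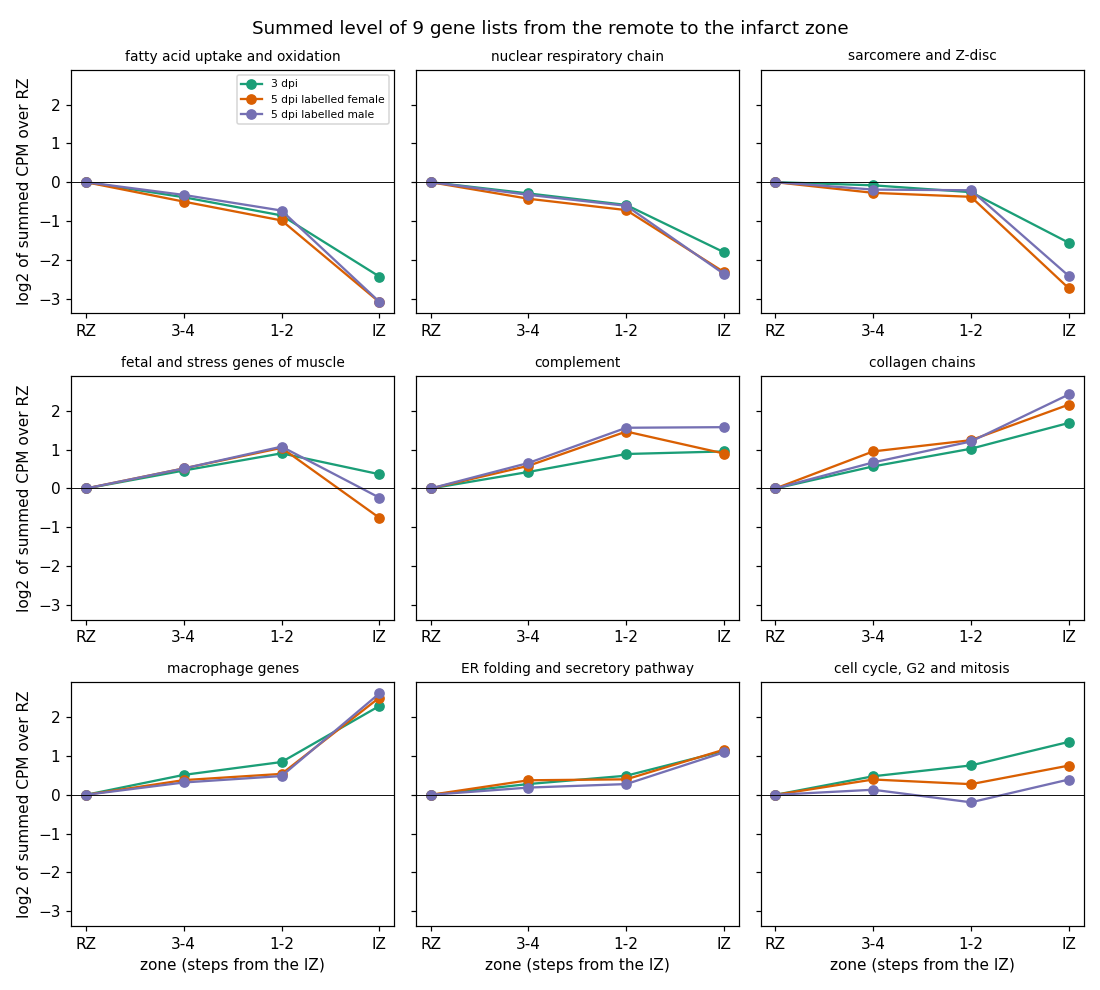
The summed CPM of 9 gene lists is plotted on a log2 scale relative to the RZ of the same section, for spots 3-4 and 1-2 steps from the IZ and for the IZ (lines are the 3 sections, a single value per zone and section with no error). Fatty acid genes decline in each step, fetal and stress genes peak at 1-2 steps (0.91, 1.05 and 1.08), and macrophage genes rise most between 1-2 steps and the IZ.

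In the secretory pathway of the endoplasmic reticulum (ER) 32 of 38 members were higher and 0 lower, with a median of 0.92 (log2). Calr, the ER chaperone calreticulin, read 391 CPM in the control, 548, 441 and 346 CPM in the RZ and 1155, 1158 and 880.01 CPM in the IZ (log2 fold change 0.96 ± 0.17, adjusted p = 6.8e-04). All 3 IZ values exceeded the RZ and the control. Fkbp10, a chaperone of procollagen, had the highest fold change (log2 fold change 2.08 ± 0.20, adjusted p = 6.2e-06), ahead of the translocon subunit Sec61b (log2 fold change 1.42 ± 0.18, adjusted p = 5.1e-05) and the disulfide isomerase Pdia6 (log2 fold change 1.33 ± 0.17, adjusted p = 4.1e-05), and Spcs1 of the signal peptidase did not pass (log2 fold change 0.06 ± 0.17). The translocon subunit Sec61g did not pass either (log2 fold change 0.31 ± 0.18).

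The unfolded protein and integrated stress responses were split, with 11 of 23 higher and 3 lower. Creld2 (log2 fold change 1.68 ± 0.22, adjusted p = 5.6e-05) and Manf (log2 fold change 1.296 ± 0.17, adjusted p = 6.9e-05), secreted products of ER stress, rose, and so did Edem1, which marks misfolded glycoproteins for disposal (log2 fold change 1.45 ± 0.19, adjusted p = 6.7e-05). The stress-induced chromatin protein Nupr1 had the highest fold change (log2 fold change 1.75 ± 0.18, adjusted p = 1.1e-05). The sensor Atf6 (log2 fold change -0.92 ± 0.17) and Herpud1 of the degradation complex (log2 fold change -0.82 ± 0.19) fell, and the factor Ddit3 (CHOP) did not pass (log2 fold change 0.09 ± 0.17). For unfolded protein and integrated stress response genes the count called higher was 7 without the 5 dpi section labelled male, against 11 by edgeR with all sections.

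Cytosolic ribosomal protein genes moved little: 13 of 79 were higher and 1 lower, shares below those of all genes, with a median of 0.27 (log2). Their summed level, which carries no TMM scaling, was 176867, 165984 and 162922 CPM in the IZ against 115355, 105454 and 122427 CPM in the RZ and 110507 CPM in the control. These are log2 ratios of 0.62, 0.65 and 0.41, against 0.36, 0.25 and 0.39 for the median gene on the same scale, so the section labelled male was about level with it. Rps12 was highest (log2 fold change 0.79 ± 0.19, adjusted p = 0.0045) and Rpl36 the 1 lower gene (log2 fold change -0.53 ± 0.18). Rpl41 did not pass (log2 fold change 0.41 ± 0.20). Ribosomal genes have many processed copies in the genome, so single values are uncertain. Rpl3l, which replaces Rpl3 in striated muscle, read 237, 161 and 116 CPM in the RZ and 16.9, 3.42 and 4.38 CPM in the IZ, while Rpl3 read 585, 589 and 596 CPM and 1233, 1162 and 1127 CPM (log2 fold change 0.68 ± 0.17, adjusted p = 0.0061). Neither overlapped. For cytosolic ribosomal protein genes the count called higher was 0 without the 5 dpi section labelled female, against 13 by edgeR with all sections (0 also by edgeR at an unadjusted p under 0.05). Rpl3 (0.63), Rpl36 (-0.62) and Rps12 (0.72) did not pass without the 5 dpi section labelled female, nor did Rpl36 (-0.45) without the 5 dpi section labelled male (log2). Rpl36 did not pass without TMM or without the block.

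In the proteasome 9 of 37 genes were lower, a share near that of all genes, and the median was -0.27 (log2). Less the median of all genes it was -0.33, -0.34 without TMM and -0.32 as UMIs per spot. The 2 higher genes were Psmb8 (log2 fold change 0.93 ± 0.16, adjusted p = 5.8e-04) and Psmb9 (log2 fold change 0.61 ± 0.19, adjusted p = 0.019), catalytic subunits of the immunoproteasome that interferon induces, while Psmb5, the standard subunit in the place of Psmb8, was lower (log2 fold change -0.63 ± 0.16). Psme4, an activator of the standard proteasome, was lowest (log2 fold change -1.48 ± 0.16). Psmb4, a subunit without catalytic role, did not pass (log2 fold change -0.25 ± 0.16). For proteasome genes the count called lower was 17 without the 3 dpi section and 3 without the 5 dpi section labelled female, against 9 by edgeR with all sections. Psmb5 (-0.61) and Psmb9 (0.56) did not pass without the 5 dpi section labelled female, nor did Psmb9 (0.51) without the 5 dpi section labelled male (log2). Psmb5 did not pass without TMM, nor did Psmb9 with DESeq2.

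Amino acid supply was uneven. Of 16 serine, glycine and one-carbon genes 11 rose and 1 fell (median 1.01). Phgdh, the first enzyme of serine synthesis, read 10.3, 6.35 and 7.003 CPM in the RZ and 24.9, 35.5 and 39.6 CPM in the IZ (log2 fold change 1.76 ± 0.28, adjusted p = 2.6e-04), with no overlap. Asns, asparagine synthetase (log2 fold change 1.83 ± 0.30, adjusted p = 3.5e-04), Psat1, the next serine enzyme (log2 fold change 0.995 ± 0.32, adjusted p = 0.023), the mitochondrial folate enzyme Mthfd2 (log2 fold change 1.02 ± 0.20, adjusted p = 0.0015) and the amino acid transporter chain Slc3a2 (log2 fold change 1.15 ± 0.17, adjusted p = 1.3e-04) rose. Shmt1, the cytosolic serine hydroxymethyltransferase, fell (log2 fold change -2.04 ± 0.43). Mthfd1, the cytosolic folate enzyme, did not pass (log2 fold change -0.48 ± 0.20). Psat1 (0.58) did not pass without the 3 dpi section, nor did Psat1 (0.94) without the 5 dpi section labelled female (log2). Psat1 (to 1.61) moved by over 1.5 times, as a fold, without the 5 dpi section labelled male (log2). Psat1 did not pass with DESeq2 or with the RZ beyond 8 steps.

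Of 21 arginine, proline and polyamine genes 9 rose and 5 fell, the latter a share near that of all genes. On the way to proline, a main residue of collagen, Aldh18a1 (log2 fold change 1.37 ± 0.20, adjusted p = 1.7e-04) and Pycr1 (log2 fold change 1.52 ± 0.33, adjusted p = 0.0023) rose and Prodh, which breaks proline down, fell (log2 fold change -1.46 ± 0.27). On the way to polyamines Odc1 (log2 fold change 0.67 ± 0.17, adjusted p = 0.0072) and Srm (log2 fold change 1.33 ± 0.19, adjusted p = 1.1e-04) rose while Sms fell (log2 fold change -0.82 ± 0.19). Nos2, the inducible nitric oxide synthase, which competes for arginine, did not pass (1.59, 7.62 and 7.003 CPM in the RZ, 7.34, 2.24 and 3.54 CPM in the IZ). Glul, glutamine synthetase (log2 fold change -0.89 ± 0.17), fell with overlapping zones, and so by the test did Oaz1, the antizyme that holds Odc1 down (log2 fold change -0.55 ± 0.18). Its levels were 950.3, 797 and 1177 CPM in the RZ and 745, 797 and 926 CPM in the IZ, level in the section labelled female. For arginine, proline and polyamine genes the count called lower was 3 without the 5 dpi section labelled female and 3 without the 5 dpi section labelled male, against 5 by edgeR with all sections. Oaz1 (-0.72) and Odc1 (0.60) did not pass without the 5 dpi section labelled female, nor did Oaz1 (-0.49) without the 5 dpi section labelled male (log2). Oaz1 did not pass without TMM or without the block.

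In cholesterol and lipid handling 15 of 28 rose and 2 fell. Members of uptake, storage and export rose, among them Apoe, the lipid carrier of macrophages, which read 594 CPM in the control, 861, 1696 and 612 CPM in the RZ and 3156, 6859.5 and 7820.3 CPM in the IZ (log2 fold change 2.20 ± 0.31, adjusted p = 9.8e-05). Its IZ level was lowest at 3 dpi and its zones did not overlap. The scavenger receptor Msr1 (log2 fold change 2.43 ± 0.31, adjusted p = 5.0e-05), the exporters Abca1 (log2 fold change 1.94 ± 0.21, adjusted p = 1.2e-05) and Abcg1 (log2 fold change 1.48 ± 0.22, adjusted p = 1.4e-04), the esterifying enzyme Soat1 (log2 fold change 1.99 ± 0.20, adjusted p = 7.2e-06) and the droplet coat Plin2 (log2 fold change 2.10 ± 0.18, adjusted p = 2.3e-06) all rose. Of cholesterol synthesis, Hmgcs1 (log2 fold change -0.06 ± 0.17) and Idi1 (log2 fold change 0.43 ± 0.40) did not pass, Sqle rose (log2 fold change 1.45 ± 0.36, adjusted p = 0.0058) and Fdft1 fell (log2 fold change -0.58 ± 0.18). Fabp4, the fatty acid carrier of capillary endothelium, fell (log2 fold change -1.72 ± 0.29). Fdft1 (-0.55) did not pass without the 5 dpi section labelled female (log2). Msr1 (to 3.24) moved by over 1.5 times, as a fold, without the 5 dpi section labelled male (log2). Fdft1 did not pass without TMM, with DESeq2 or with the RZ beyond 8 steps, nor did Sqle with DESeq2.

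Of 21 collagen chains 17 rose and 0 fell, with a median of 1.82 (log2) and section medians of 1.42, 2.33 and 2.46, lowest at 3 dpi. Col1a2, a chain of the main scar collagen, read 144 CPM in the control, 820.1, 871 and 547 CPM in the RZ and 3898, 7314 and 6685 CPM in the IZ (log2 fold change 2.67 ± 0.26, adjusted p = 5.0e-06). All IZ values lay above all RZ values. Col11a1, a fibril-nucleating chain, rose (log2 fold change 4.82 ± 0.38, adjusted p = 1.5e-06), and so did Col12a1, which links fibrils (log2 fold change 2.85 ± 0.27, adjusted p = 4.3e-06). Basement membrane chains did not pass, with Col4a1 at log2 fold change 0.28 ± 0.17, Col4a2 at log2 fold change 0.24 ± 0.17 and Col4a5 at log2 fold change -0.10 ± 0.19.

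Enzymes that build and cross-link collagen followed, 18 of 24 higher and 0 lower (median 1.24). Lox, lysyl oxidase, which forms the cross-links, read 0.878 CPM in the control, 49.2, 77.5 and 48.6 CPM in the RZ and 340.4, 702 and 623 CPM in the IZ (log2 fold change 2.92 ± 0.20, adjusted p = 8.4e-07). Its IZ values all lay above the RZ, lowest at 3 dpi. The prolyl hydroxylase subunit P4ha3 had the highest fold change (log2 fold change 3.45 ± 0.27, adjusted p = 1.3e-06), while P4ha1 (log2 fold change 0.27 ± 0.18) and P4ha2 (log2 fold change 0.37 ± 0.16) of the same enzyme did not pass. Serpinh1, the collagen chaperone (log2 fold change 1.41 ± 0.18, adjusted p = 4.6e-05), Bmp1, the procollagen C-proteinase (log2 fold change 2.21 ± 0.24, adjusted p = 1.3e-05), and Plod2, the telopeptide lysyl hydroxylase (log2 fold change 1.48 ± 0.23, adjusted p = 2.2e-04), rose, and Plod1 did not pass (log2 fold change 0.06 ± 0.16).

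Among matrix glycoproteins and proteoglycans 25 of 39 rose and 2 fell. Fn1, fibronectin, the first scaffold of a wound, read 276, 339 and 321 CPM in the RZ and 1892, 4557 and 4701 CPM in the IZ, against 53.003 CPM in the control (log2 fold change 3.16 ± 0.24, adjusted p = 1.2e-06). Sparc, a collagen-binding matrix protein, rose (log2 fold change 1.49 ± 0.19, adjusted p = 4.5e-05). Of the genes stained in the study, Cthrc1 read 45.3, 43.2 and 30.6 CPM and 383, 655 and 697 CPM (log2 fold change 3.53 ± 0.25, adjusted p = 9.2e-07), Postn 609.7, 879 and 852 CPM and 2222, 3586 and 3387 CPM (log2 fold change 1.65 ± 0.18, adjusted p = 1.4e-05), and Aspn 56.4, 82.5 and 64.8 CPM and 164, 348 and 285 CPM (log2 fold change 1.61 ± 0.18, adjusted p = 1.8e-05). None of the 3 overlapped between zones. Spp1, osteopontin, had the highest fold change of the list (log2 fold change 5.51 ± 0.32, adjusted p = 4.1e-07), and thrombospondin Thbs1 (log2 fold change 2.98 ± 0.24, adjusted p = 1.5e-06), tenascin Tnc (log2 fold change 2.11 ± 0.19, adjusted p = 2.9e-06) and the small proteoglycan Fmod (log2 fold change 3.65 ± 0.28, adjusted p = 1.1e-06) rose. Comp, a cartilage-type glycoprotein, rose (log2 fold change 3.13 ± 0.37, adjusted p = 2.9e-05) but from 4.76, 13.97 and 12.7 CPM to 7.34, 138 and 214 CPM, with overlapping zones. Among the 12 members that did not pass were Dcn (log2 fold change -0.35 ± 0.18) and Hspg2 (log2 fold change -0.06 ± 0.19), and the muscle laminins Lama2 (log2 fold change -0.70 ± 0.21) and Lamb2 (log2 fold change -1.05 ± 0.19) fell. Lama2 (-0.64) did not pass without the 5 dpi section labelled female (log2). Spp1 (to 6.10) moved by over 1.5 times, as a fold, without the 3 dpi section, and Comp (to 2.37) without the 5 dpi section labelled male (log2). Lama2 did not pass without TMM.

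Matrix proteases and their inhibitors rose in 22 of 31 and fell in 3 (median 1.52). Mmp12, the elastase of macrophages, read 6.35, 6.35 and 0.875 CPM in the RZ and 117, 123 and 86.1 CPM in the IZ (log2 fold change 4.52 ± 0.31, adjusted p = 7.9e-07), with no overlap. Mmp14, the membrane collagenase (log2 fold change 1.61 ± 0.21, adjusted p = 5.6e-05), rose, and so did the inhibitor Timp1 (log2 fold change 2.46 ± 0.18, adjusted p = 9.9e-07). Timp3 (log2 fold change 0.23 ± 0.28) and the tissue plasminogen activator Plat (log2 fold change -0.004 ± 0.27) did not pass. Timp4, the inhibitor that heart muscle makes, fell (log2 fold change -4.81 ± 0.44) from 15.1, 12.7 and 10.9 CPM to 0.612, 0.395 and 0.625 CPM. Cst3, the cysteine protease inhibitor cystatin C (log2 fold change -0.65 ± 0.20), and Serpinb6b (log2 fold change -0.99 ± 0.20) also fell. Cst3 read 2987, 2908 and 2689 CPM in the RZ and 1811, 2404 and 2649 CPM in the IZ, close together in the section labelled male. Cst3 (-0.74) did not pass without the 5 dpi section labelled female (log2). Mmp12 (to 3.91) moved by over 1.5 times, as a fold, without the 5 dpi section labelled male (log2). Cst3 did not pass without TMM.

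In the TGF-beta and BMP pathway 18 of 37 rose and 6 fell. The ligands Tgfb1 (log2 fold change 0.79 ± 0.18, adjusted p = 0.0036), Tgfb2 (log2 fold change 0.98 ± 0.26, adjusted p = 0.0098) and Tgfb3 (log2 fold change 1.92 ± 0.21, adjusted p = 1.5e-05) and the activin chain Inhba (log2 fold change 3.38 ± 0.41, adjusted p = 3.3e-05) rose. Ltbp2, a matrix protein related to those that store latent TGF-beta, read 0.586 CPM in the control, 46.8, 116 and 54.7 CPM in the RZ and 190.3, 811 and 897 CPM in the IZ (log2 fold change 2.69 ± 0.30, adjusted p = 1.7e-05). The 3 dpi IZ held the least of it, and the zones did not overlap. Of receptors, Tgfbr1 (log2 fold change 1.51 ± 0.24, adjusted p = 2.5e-04) and Tgfbr2 (log2 fold change 0.66 ± 0.16, adjusted p = 0.0054) for TGF-beta rose, and the co-receptor Tgfbr3 fell (log2 fold change -1.51 ± 0.23). Receptors for BMP went both ways, since Bmpr1a (log2 fold change -0.98 ± 0.16) and Bmpr2 (log2 fold change -0.44 ± 0.16) fell and Acvr1 rose (log2 fold change 0.84 ± 0.26, adjusted p = 0.018). The signal carriers Smad2 (log2 fold change 0.26 ± 0.22), Smad3 (log2 fold change 0.43 ± 0.32), Smad4 (log2 fold change 0.44 ± 0.22) and the inhibitor Smad7 (log2 fold change -0.08 ± 0.24) did not pass. Of targets, Tgfbi (log2 fold change 2.68 ± 0.18, adjusted p = 7.6e-07) and Pmepa1 (log2 fold change 1.25 ± 0.19, adjusted p = 2.1e-04) rose, while of the BMP targets Id1 fell (log2 fold change -1.07 ± 0.18) and Id2 (log2 fold change 1.62 ± 0.21, adjusted p = 5.9e-05) and Id3 (log2 fold change 0.9998 ± 0.18, adjusted p = 8.0e-04) rose. For TGF-beta and BMP genes the count called lower was 3 without the 5 dpi section labelled female, against 6 by edgeR with all sections. Bmpr2 (-0.45) did not pass without the 3 dpi section, nor did Acvr1 (0.62) and Bmpr2 (-0.43) without the 5 dpi section labelled female, nor Acvr1 (0.72), Bmpr2 (-0.49) and Tgfb2 (0.79) without the 5 dpi section labelled male (log2). Inhba (to 4.67) moved by over 1.5 times, as a fold, without the 5 dpi section labelled male (log2). Acvr1 did not pass with DESeq2, nor did Bmpr2 without TMM, with DESeq2, without the block or with the limit of 0.3.

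Wnt genes were sparse, 19 of 31 tested, with 9 higher and 1 lower. Secreted antagonists that rose included Sfrp2 (8.73, 20.3 and 9.19 CPM in the RZ, 61.4, 155 and 132 CPM in the IZ, log2 fold change 2.96 ± 0.23, adjusted p = 1.2e-06), Frzb (log2 fold change 1.55 ± 0.18, adjusted p = 2.1e-05), Sfrp1 (log2 fold change 1.58 ± 0.34, adjusted p = 0.0022) and Dkk3 (log2 fold change 1.32 ± 0.28, adjusted p = 0.0021). The receptors Fzd1 (log2 fold change 0.93 ± 0.24, adjusted p = 0.0068) and Fzd2 (log2 fold change 1.24 ± 0.19, adjusted p = 2.2e-04) rose and Fzd4, which endothelium carries, fell (log2 fold change -0.92 ± 0.22). The ligand Wnt5a (log2 fold change 0.09 ± 0.53) and the central Ctnnb1 (log2 fold change 0.03 ± 0.16) did not pass. Fzd1 (0.78) did not pass without the 5 dpi section labelled female (log2). Sfrp1 (to 2.21) moved by over 1.5 times, as a fold, without the 3 dpi section (log2). Fzd1 did not pass with DESeq2, nor did Sfrp1 with DESeq2.

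Of 27 growth factor genes 14 rose and 1 fell. Igf1 (log2 fold change 1.08 ± 0.17, adjusted p = 2.7e-04), the heparin-binding factors Mdk (log2 fold change 1.95 ± 0.21, adjusted p = 1.0e-05) and Ptn (log2 fold change 2.02 ± 0.37, adjusted p = 8.1e-04), and Pdgfc (log2 fold change 3.001 ± 0.39, adjusted p = 5.3e-05) rose, while Pdgfa (log2 fold change 0.09 ± 0.19) and Pdgfb (log2 fold change -0.12 ± 0.18) did not pass. The receptors Pdgfra (log2 fold change 0.56 ± 0.19, adjusted p = 0.027), Pdgfrb (log2 fold change 0.61 ± 0.19, adjusted p = 0.019), Fgfr1 (log2 fold change 0.85 ± 0.16, adjusted p = 0.0012) and Egfr (log2 fold change 1.74 ± 0.32, adjusted p = 8.2e-04) rose. Fgf1, made by heart muscle, was the 1 lower gene (log2 fold change -2.18 ± 0.16). Igfbp7, a secreted binding protein of vessels, rose (log2 fold change 0.60 ± 0.18, adjusted p = 0.015). Nrg1, neuregulin, had 0 UMIs in the RZ of all 3 sections and 115 in the IZ, so it was at least 9.60-fold higher by a floor of 3 counts over the 3 RZ sums. Pdgfra (0.47) did not pass without the 3 dpi section, nor did Igfbp7 (0.55), Pdgfra (0.53) and Pdgfrb (0.58) without the 5 dpi section labelled female, nor Igfbp7 (0.48), Pdgfra (0.61) and Pdgfrb (0.35) without the 5 dpi section labelled male (log2). Ptn (to 2.99) moved by over 1.5 times, as a fold, without the 3 dpi section, and Ptn (to 1.39) without the 5 dpi section labelled male (log2). Igfbp7 did not pass without the block or with the limit of 0.3, nor did Pdgfra with DESeq2 or with the RZ beyond 8 steps, nor Pdgfrb with DESeq2.

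Adhesion and contractile genes rose in part. Of 32 integrin and focal adhesion genes 17 rose and 5 fell. Itgav (log2 fold change 1.49 ± 0.18, adjusted p = 2.7e-05), Itga5, the fibronectin receptor chain (log2 fold change 1.24 ± 0.17, adjusted p = 8.4e-05), and Itga11, a collagen receptor of fibroblasts (log2 fold change 1.65 ± 0.36, adjusted p = 0.0024), rose, and the muscle members Itga7 (log2 fold change -1.14 ± 0.18) and Itgb1bp2 (log2 fold change -3.44 ± 0.31) fell. Itgb3 (log2 fold change 2.25 ± 0.32, adjusted p = 1.2e-04) and the actin cross-linker Flna (log2 fold change 1.31 ± 0.17, adjusted p = 4.9e-05) rose. Of contractile smooth muscle and myofibroblast genes 17 of 22 rose and 2 fell. Acta2, alpha smooth muscle actin, read 316, 507 and 389 CPM in the RZ and 724, 1641 and 1364 CPM in the IZ (log2 fold change 1.26 ± 0.19, adjusted p = 1.5e-04), and Tagln 23.02, 52.1 and 28.01 CPM and 88.7, 187 and 145 CPM (log2 fold change 1.76 ± 0.18, adjusted p = 7.6e-06). Neither overlapped. Myh11, the myosin of mature smooth muscle, did not pass (log2 fold change -0.22 ± 0.20). Actg2, the enteric smooth muscle actin (log2 fold change 3.37 ± 0.31, adjusted p = 4.0e-06), and the myosin light chain Myl6 (log2 fold change 0.85 ± 0.18, adjusted p = 0.002) rose, and Synpo2, an actin-bundling protein, fell (log2 fold change -1.63 ± 0.22). Myl6 (0.81) did not pass without the 5 dpi section labelled female, nor did Itga11 (1.04) without the 5 dpi section labelled male (log2). Itgb1bp2 (to -4.05) moved by over 1.5 times, as a fold, without the 3 dpi section (log2).

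Macrophage genes rose in 27 of 32 and fell in 2 (median 2.06). Lyz2, the lysozyme of myeloid cells, read 416 CPM in the control, 653, 813 and 609 CPM in the RZ and 3551, 5655 and 5019.7 CPM in the IZ (log2 fold change 2.45 ± 0.20, adjusted p = 1.7e-06). The zones were apart in all sections. Ly6c2 (log2 fold change 2.93 ± 0.30, adjusted p = 9.5e-06) and Ccr2 (log2 fold change 2.52 ± 0.28, adjusted p = 1.6e-05), which mark monocytes from the blood, rose, and Trem2 (log2 fold change 3.004 ± 0.23, adjusted p = 1.2e-06), Gpnmb (log2 fold change 4.93 ± 0.40, adjusted p = 1.6e-06) and Lgals3 (log2 fold change 3.50 ± 0.27, adjusted p = 1.2e-06), which mark lipid-laden macrophages, rose too. Of genes of resident macrophages, Lyve1 (log2 fold change -2.55 ± 0.31) and Cd163 (log2 fold change -1.36 ± 0.35) fell, Folr2 (log2 fold change -0.001 ± 0.18), F13a1 (log2 fold change -0.29 ± 0.21) and Mrc1 (log2 fold change 0.42 ± 0.17) did not pass, and Timd4 had too few UMIs to be tested. Lyve1 is also carried by lymphatic vessels. Cd163 (-1.02) did not pass without the 5 dpi section labelled male (log2). Gpnmb (to 5.95) moved by over 1.5 times, as a fold, without the 3 dpi section, and Gpnmb (to 4.20) without the 5 dpi section labelled male (log2). Cd163 did not pass without the block.

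Lysosome genes rose in 31 of 37 and fell in 2 (median 1.32). Their summed level was 7919, 7635 and 5972 CPM in the RZ and 20855, 25385 and 24374 CPM in the IZ, against 5409 CPM in the control. Ctss, the cathepsin of antigen-presenting cells, read 109.6, 124 and 77.9 CPM and 864, 1231 and 1122 CPM (log2 fold change 3.07 ± 0.21, adjusted p = 6.9e-07), with no overlap. Proteases such as Ctsb (log2 fold change 1.83 ± 0.19, adjusted p = 8.4e-06) and Lgmn (log2 fold change 2.07 ± 0.18, adjusted p = 2.8e-06), the glycosidase Gusb (log2 fold change 1.77 ± 0.19, adjusted p = 1.2e-05), the sphingolipid activator Psap (log2 fold change 1.32 ± 0.21, adjusted p = 2.9e-04) and the acid phosphatase Acp5 (log2 fold change 4.40 ± 0.30, adjusted p = 7.9e-07) rose. Atp6v0d2, a proton pump subunit of osteoclasts and macrophages, had 0 UMIs in the RZ of all sections and 230 in the IZ, at least 19.2-fold higher by the same floor. The transcription factors that drive lysosome genes differed, Tfe3 rising (log2 fold change 0.67 ± 0.21, adjusted p = 0.021), Tfeb falling (log2 fold change -0.74 ± 0.20) and Mitf falling (log2 fold change -1.78 ± 0.22). Tfe3 (0.51) and Tfeb (-0.50) did not pass without the 3 dpi section, nor did Tfe3 (0.60) without the 5 dpi section labelled male (log2). Acp5 (to 5.02) moved by over 1.5 times, as a fold, without the 3 dpi section (log2). Tfe3 did not pass with DESeq2, nor did Tfeb without TMM or with DESeq2.

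These factors bind a site searched here as TCACGTGA on either strand (the letters read the same on both). It was in 6 of 27 lysosome promoters (22.2%), those of Atp6v0d1, Mcoln1, Ctsa, Ctsd, Atp6v1a and Gla, and in 304 of 27025 of all RefSeq promoters (1.12%). All 6 genes rose, as did most lysosome genes without the letters. The promoter of Gla, the alpha-galactosidase that clears globosides (log2 fold change 3.72 ± 0.45, adjusted p = 3.0e-05), is shown because it holds the letters at 2 places; it was chosen after its values were seen. It lies at chrX:134600956-134601255 of GRCm38.p6, minus strand, with the matches in capitals. Atp6v0d1 (0.54) did not pass without the 5 dpi section labelled female, nor did Mcoln1 (0.94) without the 5 dpi section labelled male (log2). Gla (to 4.82) moved by over 1.5 times, as a fold, without the 3 dpi section, and Gla (to 2.93) without the 5 dpi section labelled male (log2). Mcoln1 did not pass with DESeq2 or without the block.
Gla: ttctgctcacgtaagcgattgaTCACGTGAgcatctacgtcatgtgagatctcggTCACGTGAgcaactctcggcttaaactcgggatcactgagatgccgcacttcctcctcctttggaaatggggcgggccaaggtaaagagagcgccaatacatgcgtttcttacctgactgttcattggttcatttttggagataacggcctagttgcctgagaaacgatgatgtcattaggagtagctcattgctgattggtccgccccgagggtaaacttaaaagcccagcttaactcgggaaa

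Receptors and bridges for the uptake of dead cells rose in 14 of 20, and the uptake receptor Cd36 was the 1 lower gene. Mertk (log2 fold change 1.57 ± 0.41, adjusted p = 0.0086), Axl (log2 fold change 0.60 ± 0.16, adjusted p = 0.0091), Stab1 (log2 fold change 1.17 ± 0.18, adjusted p = 2.1e-04) and the inhibitory receptor Cd300a (log2 fold change 2.78 ± 0.36, adjusted p = 5.6e-05) rose, the bridging ligand Gas6 did not pass (log2 fold change -0.09 ± 0.19) and Pros1 rose (log2 fold change 0.64 ± 0.22, adjusted p = 0.03). Pros1 (0.43) did not pass without the 3 dpi section, nor did Axl (0.56) without the 5 dpi section labelled female, nor Axl (0.51), Mertk (1.39) and Pros1 (0.67) without the 5 dpi section labelled male (log2). Cd300a (to 2.19) moved by over 1.5 times, as a fold, without the 5 dpi section labelled male (log2). Mertk did not pass with DESeq2 or with the RZ beyond 8 steps, nor did Pros1 with DESeq2 or with the RZ beyond 8 steps.

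Chemokines and their receptors rose in 20 of 26 and fell in 2. Pf4, a platelet and macrophage chemokine, read 199, 157 and 181 CPM in the RZ and 857, 748 and 706 CPM in the IZ (log2 fold change 1.79 ± 0.17, adjusted p = 5.9e-06). The zones did not overlap. Monocyte attractants Ccl2 (log2 fold change 1.33 ± 0.30, adjusted p = 0.0029) and Ccl7 (log2 fold change 2.30 ± 0.25, adjusted p = 1.2e-05) and their receptor Ccr2 rose together, and so did Cxcl5, which draws neutrophils (log2 fold change 3.34 ± 0.32, adjusted p = 5.2e-06). Cxcl12 did not pass (log2 fold change 0.28 ± 0.23), its receptor Cxcr4 rose (log2 fold change 1.45 ± 0.24, adjusted p = 3.6e-04) and its scavenger Ackr3 fell (log2 fold change -2.06 ± 0.16). Ccl2 (to 1.92) moved by over 1.5 times, as a fold, without the 5 dpi section labelled male (log2).

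Of 30 cytokine genes 19 rose and 2 fell. Il1b, an early inflammatory cytokine, read 0.293 CPM in the control, 0.794, 5.08 and 2.19 CPM in the RZ and 14.1, 22.6 and 16.5 CPM in the IZ (log2 fold change 2.53 ± 0.38, adjusted p = 1.9e-04), and its antagonist Il1rn rose as well (log2 fold change 3.39 ± 0.50, adjusted p = 1.5e-04). Neither IZ nor RZ of Il1b reached the other. The alarm cytokine Il33 (log2 fold change 2.72 ± 0.33, adjusted p = 3.0e-05), the receptors Il1r1 (log2 fold change 2.002 ± 0.25, adjusted p = 4.2e-05) and Il4ra (log2 fold change 1.66 ± 0.17, adjusted p = 7.7e-06) and the feedback inhibitor Socs3 (log2 fold change 1.33 ± 0.23, adjusted p = 4.5e-04) rose. Il6 had 0 UMIs in the RZ of all sections and 86 in the IZ, at least 7.18-fold higher by that floor, and its signal chain Il6st did not pass (log2 fold change 0.28 ± 0.17). Tnfrsf12a, the TWEAK receptor, which stressed muscle carries, fell (log2 fold change -1.03 ± 0.20) while its ligand Tnfsf12 rose (log2 fold change 1.08 ± 0.18, adjusted p = 3.2e-04). Ifngr2, a chain of the interferon gamma receptor, fell (log2 fold change -1.22 ± 0.17). Il1rn (to 2.72) moved by over 1.5 times, as a fold, without the 3 dpi section, and Il1rn (to 4.02) without the 5 dpi section labelled female, and Il33 (to 2.05) without the 5 dpi section labelled male (log2).

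Neutrophil genes were few, 13 of 19 tested, with 9 higher and 1 lower. S100a9, a calgranulin, read 8.73, 36.8 and 14.4 CPM in the RZ and 119, 112 and 114 CPM in the IZ (log2 fold change 2.38 ± 0.29, adjusted p = 3.4e-05), with no overlap. Granule genes of young neutrophils did not pass or were not tested, with Lcn2 at log2 fold change -0.45 ± 0.31. Clec4d, a lectin receptor shared with macrophages, rose from 3.97, 5.08 and 2.19 CPM to 85.7, 102 and 77.1 CPM (log2 fold change 4.35 ± 0.26, adjusted p = 4.1e-07). G0s2, a lipase inhibitor that muscle and fat also make, was the lower gene (log2 fold change -2.57 ± 0.16). In the NF-kappaB and inflammasome list 22 of 27 rose and 0 fell. Nfkb2 (log2 fold change 1.13 ± 0.17, adjusted p = 2.3e-04), the sensors Tlr2 (log2 fold change 1.44 ± 0.24, adjusted p = 4.0e-04) and Tlr13 (log2 fold change 2.57 ± 0.24, adjusted p = 4.6e-06), the protease Casp1 (log2 fold change 2.16 ± 0.36, adjusted p = 3.6e-04) and the pore Gsdmd (log2 fold change 1.45 ± 0.20, adjusted p = 8.0e-05) rose, and Rela did not pass (log2 fold change 0.28 ± 0.17). For genes of NF-kappaB and the inflammasome the count called higher was 13 with DESeq2, against 22 by edgeR with all sections. Casp1 (to 3.03) moved by over 1.5 times, as a fold, without the 5 dpi section labelled male (log2).

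Of complement genes, C1qa (log2 fold change 1.45 ± 0.20, adjusted p = 1.0e-04) and C1qb (log2 fold change 1.95 ± 0.22, adjusted p = 1.6e-05), made by macrophages, and the receptors C3ar1 (log2 fold change 2.59 ± 0.24, adjusted p = 4.0e-06) and C5ar1 (log2 fold change 1.87 ± 0.22, adjusted p = 2.3e-05) rose. The fibroblast products C3 (log2 fold change -0.41 ± 0.47), C4b (log2 fold change -0.06 ± 0.18), C1s1 (log2 fold change -0.02 ± 0.24) and Serping1 (log2 fold change -0.15 ± 0.29) did not pass, and the shields Cd59a (log2 fold change -1.996 ± 0.17) and Cr1l (log2 fold change -0.52 ± 0.19) fell. The list median was 0.09 (log2), 8 of 19 higher and 2 lower, and it was -0.05 without the 5 dpi section labelled male. For complement genes the count called lower was 4 without the 5 dpi section labelled male and 1 with DESeq2, against 2 by edgeR with all sections. Clu, clusterin, which stressed muscle also makes, rose (log2 fold change 0.56 ± 0.20, adjusted p = 0.035), but was -0.29 (log2) with an IZ limit of 0.3 times the percentile. Clu (0.71) did not pass without the 5 dpi section labelled female, nor did Clu (0.39) and Cr1l (-0.30) without the 5 dpi section labelled male (log2). Clu did not pass without the block or with the limit of 0.3, nor did Cr1l without TMM, with DESeq2 or with the limit of 0.3.

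Antigen presentation rose in 15 of 19 and fell in 0, in class II genes such as Cd74, the invariant chain (173, 391 and 164 CPM in the RZ, 558, 804 and 1245 CPM in the IZ, log2 fold change 1.57 ± 0.28, adjusted p = 6.3e-04), and H2-Ab1 (log2 fold change 1.39 ± 0.29, adjusted p = 0.002) and in class I genes such as H2-K1 (log2 fold change 1.06 ± 0.17, adjusted p = 2.9e-04) and B2m (log2 fold change 0.79 ± 0.17, adjusted p = 0.0024). The peptide loader H2-DMb1 had the highest fold change of those named (log2 fold change 1.99 ± 0.43, adjusted p = 0.0026), and the transporter Tap2 did not pass (log2 fold change 0.03 ± 0.20). Interferon-induced genes rose in 23 of 40 and fell in 1, with section medians of 1.21, 0.72 and 0.94 (log2 CPM ratio). Irf7, the factor that amplifies the type I response, read 21.7 CPM in the control, 78.6, 43.2 and 45.1 CPM in the RZ and 239.7, 141 and 188 CPM in the IZ (log2 fold change 1.48 ± 0.17, adjusted p = 2.2e-05). The 3 dpi heart was highest in both zones, and the zones were apart. Isg15, a classical member, rose (log2 fold change 1.004 ± 0.18, adjusted p = 5.4e-04), while Rsad2 (log2 fold change -0.33 ± 0.23) and Ifit1 (log2 fold change 0.49 ± 0.26) did not pass. Zbp1, a sensor of nucleic acids, rose (log2 fold change 1.93 ± 0.22, adjusted p = 2.2e-05), the GTPase Iigp1 fell (log2 fold change -0.95 ± 0.22) and Ifi27l2a did not pass (log2 fold change 0.09 ± 0.17). For interferon-induced genes the count called higher was 15 without the 3 dpi section and 14 with DESeq2, against 23 by edgeR with all sections. B2m (0.76) did not pass without the 5 dpi section labelled female (log2). H2-DMb1 (to 2.99) moved by over 1.5 times, as a fold, without the 3 dpi section, and H2-DMb1 (to 1.10) without the 5 dpi section labelled male (log2). Iigp1 did not pass without the block or with the RZ beyond 8 steps.

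Heme and iron genes went both ways, 8 of 19 higher and 9 lower. Hmox1, heme oxygenase, which opens the heme ring, read 9.08 CPM in the control, 24.6, 29.2 and 20.1 CPM in the RZ and 626, 549.6 and 398 CPM in the IZ (log2 fold change 4.09 ± 0.20, adjusted p = 4.1e-07). No RZ value came near the IZ. The ferritin chains Ftl1 (log2 fold change 2.58 ± 0.21, adjusted p = 1.7e-06) and Fth1 (log2 fold change 0.55 ± 0.20, adjusted p = 0.042), the iron exporter Slc40a1 (log2 fold change 1.24 ± 0.39, adjusted p = 0.022) and haptoglobin Hp (log2 fold change 4.11 ± 0.30, adjusted p = 9.9e-07) rose. Heme synthesis Alas1 (log2 fold change -2.53 ± 0.18) and the iron importer Tfrc (log2 fold change -2.96 ± 0.47) fell. Tfrc read 73.8, 127 and 90.2 CPM in the RZ and 43.04, 8.42 and 7.30 CPM in the IZ, its highest IZ level at 3 dpi. Globin genes and Alas2, which mark red cells, fell with overlapping zones (Hbb-bs, log2 fold change -1.06 ± 0.21; Alas2, log2 fold change -0.86 ± 0.19). For heme, iron and red cell genes the count called higher was 4 without the 5 dpi section labelled female and 5 without the 5 dpi section labelled male, against 8 by edgeR with all sections. Fth1 (0.40) and Slc40a1 (0.89) did not pass without the 5 dpi section labelled female, nor did Fth1 (0.49) and Slc40a1 (0.85) without the 5 dpi section labelled male (log2). Slc40a1 (to 2.11) and Tfrc (to -4.09) moved by over 1.5 times, as a fold, without the 3 dpi section, and Hp (to 3.36) without the 5 dpi section labelled male (log2). Alas2 did not pass without the block, nor did Fth1 without the block or with the RZ beyond 8 steps, nor Hbb-bs without the block.

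Defence against oxidants split as well, 13 of 34 higher and 12 lower. Mitochondrial enzymes fell, Sod2 (log2 fold change -2.70 ± 0.19) and Prdx3 (log2 fold change -2.20 ± 0.16), while subunits of the phagocyte oxidase rose, Cybb (log2 fold change 2.39 ± 0.22, adjusted p = 3.7e-06) and Ncf1 (log2 fold change 2.51 ± 0.23, adjusted p = 4.1e-06). Extracellular Sod3 (log2 fold change 1.18 ± 0.27, adjusted p = 0.0034) and the ER peroxidase Gpx7 (log2 fold change 1.52 ± 0.17, adjusted p = 2.0e-05) rose and cytosolic Sod1 fell (log2 fold change -0.98 ± 0.16). The regulator Nfe2l2 did not pass (log2 fold change 0.19 ± 0.16) and its target Nqo1 fell (log2 fold change -1.80 ± 0.17). Gpx4, which protects lipids from peroxidation, fell (log2 fold change -1.31 ± 0.17).

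Hypoxia and angiogenic genes had 13 lower and 7 higher of 31, the latter a share near that of all genes, and the median was -0.17 (log2). Less the median of all genes it was -0.24, -0.23 without TMM and -0.41 as UMIs per spot, but 0.01 and -0.01 without the 5 dpi section labelled female or that labelled male, where the list was level with all genes. Vegfa (log2 fold change -2.09 ± 0.19) and Vegfb (log2 fold change -2.70 ± 0.18), which heart muscle makes, fell, and Pgf (log2 fold change 1.32 ± 0.26, adjusted p = 0.0012) and Vegfd (log2 fold change 2.33 ± 0.55, adjusted p = 0.0044) rose. The endothelial receptor Kdr fell (log2 fold change -1.52 ± 0.18). Hif1a rose (log2 fold change 0.53 ± 0.18, adjusted p = 0.029) and Epas1 fell (log2 fold change -0.97 ± 0.16). Among targets of hypoxia, Angptl4 rose (log2 fold change 2.07 ± 0.18, adjusted p = 3.0e-06), Bnip3 fell (log2 fold change -1.55 ± 0.17) and Adm did not pass (log2 fold change -0.52 ± 0.34). Higd1a, a hypoxia-induced mitochondrial protein, fell (log2 fold change -1.31 ± 0.19). For hypoxia and angiogenic genes the count called higher was 4 without the 5 dpi section labelled male and 4 with DESeq2, against 7 by edgeR with all sections. Hif1a (0.40) did not pass without the 3 dpi section, nor did Hif1a (0.41) without the 5 dpi section labelled female, nor Vegfd (1.10) without the 5 dpi section labelled male (log2). Vegfd (to 3.67) moved by over 1.5 times, as a fold, without the 3 dpi section (log2). Hif1a did not pass with DESeq2 or with the limit of 0.3.

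Genes of cell death and p53 rose in 19 of 30 and fell in 1. The effector Bax (log2 fold change 1.13 ± 0.16, adjusted p = 1.3e-04), the necroptosis kinase Ripk3 (log2 fold change 1.07 ± 0.22, adjusted p = 0.002) and the survival gene Bcl2a1b of leukocytes (log2 fold change 3.08 ± 0.22, adjusted p = 8.5e-07) rose, and Ccng1, a p53 target abundant in muscle, fell (log2 fold change -1.92 ± 0.17). Bcl2a1b has near-identical copies, so its count is uncertain. Of immediate early genes 11 of 27 rose and 2 fell, among them Atf3 (log2 fold change 1.65 ± 0.24, adjusted p = 1.5e-04) and Junb (log2 fold change 1.24 ± 0.17, adjusted p = 9.9e-05) up and Klf4 down (log2 fold change -0.91 ± 0.22), with Egr1 (log2 fold change 0.20 ± 0.22) and Jun (log2 fold change 0.26 ± 0.18) not past the threshold. Ier3 did not pass (log2 fold change 0.11 ± 0.16). For apoptosis and p53 genes the count called higher was 9 with DESeq2, against 19 by edgeR with all sections. Klf4 did not pass with the RZ beyond 8 steps.

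Transcription factors of fibroblasts and targets of YAP rose in 14 of 27 and fell in 3. Runx1 read 8.73, 11.4 and 4.38 CPM in the RZ and 37.9, 88.4 and 57.3 CPM in the IZ (log2 fold change 2.66 ± 0.27, adjusted p = 7.8e-06), and Scx, a tendon and scar factor (log2 fold change 0.98 ± 0.22, adjusted p = 0.0029), Snai1 (log2 fold change 1.88 ± 0.22, adjusted p = 2.8e-05) and Meox1 (log2 fold change 0.58 ± 0.20, adjusted p = 0.03) rose. Runx1 did not overlap. Tcf21, which marks resting fibroblasts, did not pass (log2 fold change 0.37 ± 0.26), and Yap1 (log2 fold change -1.02 ± 0.20) and Tead1 (log2 fold change -0.63 ± 0.15) fell. The lowest of the list was Ankrd1, also a target of YAP and described above with the fetal and stress genes, which held 81.1%, 85.0% and 84.8% of the list's summed CPM in the RZ and 71.5%, 41.2% and 51.6% in the IZ. With it the summed level of the list went against the count at 5 dpi, from 2405, 3675 and 3209.6 CPM in the RZ to 2889, 1517 and 1734 CPM in the IZ. Of IZ spots 73.7, 8.23 and 22.8% lay above the median RZ spot, so the 3 dpi section went the other way from the 5 dpi sections. In the circadian clock 6 of 16 genes were lower and 0 higher. The median was -0.47 (log2), or -0.53 once the median of all genes was taken off, and -0.62 in the same way as UMIs per spot. Nr1d1 fell (log2 fold change -1.17 ± 0.19), and the core genes Arntl (log2 fold change 0.05 ± 0.25), Clock (log2 fold change -0.49 ± 0.23) and Per1 (log2 fold change -0.09 ± 0.26) did not pass. Neither did Bhlhe40, a repressor of the clock (log2 fold change 0.37 ± 0.16). For fibroblast transcription factors and YAP target genes the count called higher was 8 without the 5 dpi section labelled female, 8 without the 5 dpi section labelled male and 8 with DESeq2, against 14 by edgeR with all sections. Meox1 (0.31) did not pass without the 3 dpi section, nor did Meox1 (0.55) and Tead1 (-0.60) without the 5 dpi section labelled female (log2). Meox1 did not pass with DESeq2, without the block or with the limit of 0.3, nor did Tead1 without TMM.

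Cell cycle genes rose in 13 of 26 for S phase and 15 of 32 for G2 and mitosis, with 0 lower. The section medians were 1.65, 0.92 and 0.47 and 1.78, 1.03 and 0.39 (log2 CPM ratio), of which the 5 dpi section labelled male lay nearest to its median gene of 0.39. Mki67, the proliferation antigen, read 3.81 CPM in the control, 20.6, 36.8 and 62.6 CPM in the RZ and 110.1, 85.7 and 77.1 CPM in the IZ (log2 fold change 0.86 ± 0.31, adjusted p = 0.039). The RZ of the section labelled male was the highest of the 3 remote zones and near its own IZ. Birc5, survivin (log2 fold change 1.23 ± 0.29, adjusted p = 0.0045), Plk1 (log2 fold change 1.10 ± 0.23, adjusted p = 0.0022) and Ccnb1 (log2 fold change 1.05 ± 0.23, adjusted p = 0.0024) rose, Top2a (log2 fold change 0.50 ± 0.22) and Pcna (log2 fold change 0.34 ± 0.23) did not pass. Of S phase, the licensing factor Cdt1 rose (log2 fold change 1.11 ± 0.32, adjusted p = 0.014) and the histone mRNA binder Slbp did not pass (log2 fold change 0.01 ± 0.18). The centromere histone Cenpa (log2 fold change -0.04 ± 0.21) and the tubulin Tuba1b (log2 fold change 0.12 ± 0.20) did not pass. For cell cycle, G2 and mitosis genes the count called higher was 7 without the 3 dpi section, 7 without the 5 dpi section labelled female, 25 without the 5 dpi section labelled male and 8 with DESeq2, against 15 by edgeR with all sections. For cell cycle, S phase genes the count called higher was 3 without the 3 dpi section, 7 without the 5 dpi section labelled female and 5 with DESeq2, against 13 by edgeR with all sections. Cdt1 (0.66) and Mki67 (0.30) did not pass without the 3 dpi section, nor did Mki67 (0.82) without the 5 dpi section labelled female (log2). Birc5 (to 1.90), Cdt1 (to 1.91) and Mki67 (to 1.51) moved by over 1.5 times, as a fold, without the 5 dpi section labelled male (log2). Mki67 did not pass without the block.

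Genes of G2 and mitosis are known for a promoter element, CHR, searched here as TTTGAA on either strand. It was in 19 of 26 promoters of that list (73.1%), in 3 of 23 of the S phase list (13.04%) and in 5466 of 27025 of all (20.2%). The promoter of Ckap2l, a spindle protein (log2 fold change 1.19 ± 0.27, adjusted p = 0.0032), is shown as an example chosen after its values were seen, because it holds the letters at 2 places. It lies at chr2:129297163-129297462 of GRCm38.p6, minus strand, and capitals mark the matches, the first on the opposite strand.
Ckap2l: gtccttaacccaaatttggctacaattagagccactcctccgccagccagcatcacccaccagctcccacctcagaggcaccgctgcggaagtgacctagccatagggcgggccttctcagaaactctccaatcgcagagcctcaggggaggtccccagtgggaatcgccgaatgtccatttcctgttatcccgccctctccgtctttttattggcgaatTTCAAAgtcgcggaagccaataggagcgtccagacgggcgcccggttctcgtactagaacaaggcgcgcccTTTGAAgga

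**Figure D5:**
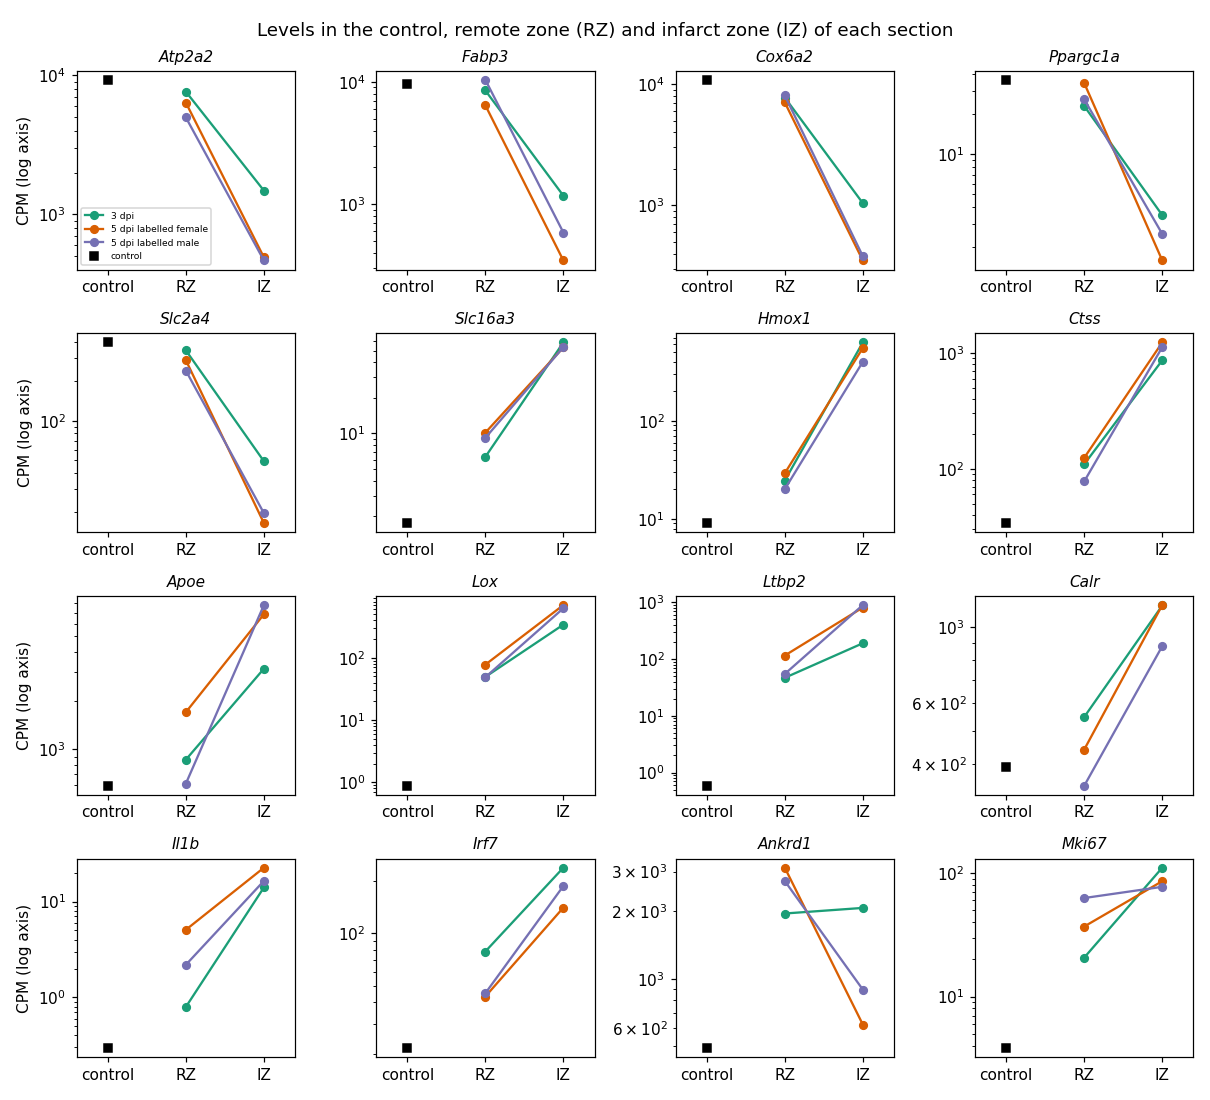
CPM on log axes of 16 genes in the control (square) and in the RZ and IZ of each infarcted section (circles joined by a line, 1 sum per zone and section, no error bar). Lines of muscle and mitochondrial genes fall and those of matrix and immune genes rise in every section, while Ankrd1 is level at 3 dpi and falls at 5 dpi.

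Outside the lists, among called genes with at least 50 CPM in 1 zone, the 10 with the highest fold change were Cemip, a hyaluronan-degrading protein (3.97, 2.54 and 2.63 CPM in the RZ and 13.5, 134 and 115 CPM in the IZ, log2 fold change 4.43 ± 0.44, adjusted p = 7.0e-06), Saa3, an acute-phase protein made in tissue (log2 fold change 4.10 ± 0.41, adjusted p = 6.6e-06), Mpeg1, the pore-forming perforin-2 of macrophages (log2 fold change 3.69 ± 0.23, adjusted p = 5.1e-07), and Lilr4b, Cd84, Pla2g7, Glipr1, Gm21188, Dok1 and Lat2, several of them known from myeloid cells. Cemip did not overlap between zones. The 10 lowest were Lrtm1 (log2 fold change -5.27 ± 0.30), Rpl3l, Car14, Dhrs7c, Fitm1, Fndc5, Yipf7, Tuba8, Mlf1 and Klhdc8a. Car14 (to -6.21), Cemip (to 5.17), Dhrs7c (to -5.87), Fndc5 (to -5.19), Lrtm1 (to -6.06), Rpl3l (to -5.48) and Tuba8 (to -5.63) moved by over 1.5 times, as a fold, without the 3 dpi section, and Lilr4b (to 4.43) and Saa3 (to 3.31) without the 5 dpi section labelled female, and Cemip (to 3.73) without the 5 dpi section labelled male (log2).

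Spots of the IZ were not alike. The respiratory chain share of an IZ spot had a median of 4.67, 2.46 and 2.58%, against 17.004, 15.05 and 17.1% in the RZ, and every IZ spot lay below the 10th percentile of the RZ. Macrophage genes held a median of 0.952, 1.44 and 1.24% in the IZ and 0.203, 0.254 and 0.212% in the RZ. Within the IZ the 10th and 90th percentiles of their share were 0.457, 0.614 and 0.493% and 1.90, 2.50 and 2.85%. Genes of G2 and mitosis exceeded the 90th percentile of the RZ in 75.8, 43.1 and 23.5% of IZ spots, the most in the 3 dpi section.

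Across the spots of an IZ (886, 1081 and 684) the shares of macrophage and lysosome genes rose together, with Spearman's rho of 0.85, 0.87 and 0.92, and those of macrophage and lipid handling genes with 0.78, 0.70 and 0.82. Each of these pairs shares 1 gene. Macrophage and collagen shares had rho of 0.06, -0.09 and -0.14, near 0 in each section, while collagen chains and their modifying enzymes had 0.53, 0.61 and 0.66, and collagen chains and the ER 0.34, 0.32 and 0.31. The respiratory chain went with the sarcomere (0.91, 0.81 and 0.81) and against macrophage genes (-0.68, -0.49 and -0.59). These are descriptions over spots that share a library, differ in depth and are shares of 1 total, and they carry no test.

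Markers of other cell types moved with these results, and their part in them was not tested. Of the tested markers, 8 of 8 for macrophages, 4 of 6 for smooth muscle and 4 of 9 for fibroblasts were higher. Smtn of smooth muscle and Gsn of fibroblasts were lower. Lower were 5 of 10 for endothelium, 5 of 7 for pericytes, 3 of 6 for lymphatic vessels and 5 of 5 for red cells. Pdgfrb of pericytes and Pdpn of lymphatic vessels were higher. Of the endothelial markers 0 were higher. Of 5 atrial markers 2 had 0 UMIs in every IZ (Sln and Bmp10) and 2 in every RZ (Sln and Myl7), and their summed level, nearly all of it Nppa, was 4805, 6148 and 6600 CPM in the RZ, 11903, 6749 and 10224 CPM in the IZ and 441 CPM in the control. Of 6 adipocyte markers 5 had 0 UMIs in every RZ and 1, Plin1, in every IZ, and their summed level reached 29.6 CPM in the IZ of the section labelled female against 1.27 CPM in its RZ. T and NK cell markers summed to 3.97, 5.08 and 6.13 CPM in the RZ and 27.9, 19.2 and 27.9 CPM in the IZ, and B cell markers to 3.97, 11.4 and 3.94 CPM and 17.5, 19.1 and 22.9 CPM. Only 2 genes of each list passed the filter on low counts, which the deeper IZ sums favour, so no count of calls is given.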

How the data were processed

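The deposited files hold UMI counts per gene and spot, which the authors made with Space Ranger (spaceranger 1.3.1 and mm10 in the submitters' processing notes), with tissue flags and array positions for 4 sections. The zones and gene lists were chosen with earlier results of these data known. Spots under tissue with at least 500 UMIs were kept, and 623 spots off the tissue in the 5 dpi section labelled male were left out. UMIs were summed per zone and section into 6 sums. The 12 rule genes and 13 mitochondrially encoded genes were left out, filterByExpr left 11434 genes, and edgeR 4.0.16 (R 4.3.3) fitted zone with the section as a block, TMM scaling and Benjamini-Hochberg adjustment at 0.05. Zones of 1 section come from 1 heart, which is the pairing. Ratios within a section used a pseudocount of 0.5 UMIs and no TMM. The genes named were, in each list, the member with the highest fold change, the lowest and the highest level among those with a mean of at least 20 CPM in 1 zone, further members by their role (these chosen with values in view), the 10 highest and 10 lowest outside the lists with at least 50 CPM, and Cthrc1, Postn and Aspn. Some genes that this rule selects are not reported here. Alternatives were DESeq2 1.42.0, no gene filter, other scalings, zone limits and distances, no block, and leaving out each section. The scripts were tested on simulated data. Summed zones held 1 library each. The p-values rest on the spread between 3 hearts as moderated over all genes, with 2 residual and 9.92 prior degrees of freedom. They do not measure the spread of a single gene alone.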

Additional observations from a re-analysis of the deposited data

Results flagged for a closer look

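Among the 164 genes chosen by rule and the 49 list medians, in 4 results the 3 dpi section moved one way and both 5 dpi sections the other, on the scale of log2 CPM ratios within a section; the differences were not tested, and 1 heart stands for 3 dpi. Ankrd1, the stretch-induced titin partner, had ratios of 0.0826 at 3 dpi and -2.32 and -1.61 at 5 dpi. The median over the fetal and stress genes of muscle was 0.0826 against -1.48 and -1.305, and Ankrd1 is its median gene at 3 dpi. Atp1b1, a subunit of the sodium pump, had 0.0738 against -1.07 and -0.85. Mthfd1, the cytosolic folate enzyme, had 0.27 against -0.46 and -0.34. On this scale the median of all genes was 0.36, 0.25 and 0.39, so all 4 lay below it at 3 dpi too. Over all 1298 tested members of the lists 67 had opposite signs in this way, 9 of them called. Among these, Nos2, which did not pass, had 1.91 against -1.84 and -0.99 on 2 to 36 UMIs per zone and with a pseudocount of 0.5 UMIs, and Rsad2, which did not pass either, had 0.67 against -0.61 and -0.24. Wnt5a, Cxcl12, Per1, Serping1, C1s1, Gas6 and Timp3, none of them called, were lower in the IZ at 3 dpi and higher in both 5 dpi sections.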

How the results depend on the processing

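Of 5179 genes called, leaving out each section gave 3963 to 5250 called genes, the fewest without the 5 dpi section labelled female. Genes called higher numbered 2567, against 4255 without TMM and 1587 with DESeq2, and 1810 to 2553 when each section was left out. The pairing of zones by section is that of the same heart, and with no replicate block 5089 genes were called, of which 4928 were also called with the block. Of the 164 genes chosen by rule, Oaz1, Rpl36, Igfbp7, Clu, Iigp1 and Hbb-bs no longer passed without the block. With an IZ limit of 0.3 times the percentile, 2 of the 164 genes chosen by rule changed sign, Nppa to -0.73 and Clu to -0.29 (log2). Of these 164, Cdt1 no longer passed without the 3 dpi section, Atp1b1, Polrmt, Oaz1, Rps12, Rpl36, Cst3, Igfbp7, Myl6, Clu and B2m without the 5 dpi section labelled female, and Polrmt, Oaz1, Rpl36, Igfbp7 and Clu without that labelled male. Acad8, Polrmt, Oaz1, Rpl36 and Cst3 no longer passed without TMM, Acad8, Polrmt, Iigp1 and Klf4 with the RZ begun beyond 8 steps, Ankrd1 and Polrmt with DESeq2, Igfbp7 with the limit of 0.3, Clu with the study's spot filter or with the mitochondrially encoded genes kept, and Rpl36 with no filter on low counts. The causes were not tested. Scalings move all genes together: the median of all genes was 0.07, 0.39 without TMM and 1.17 as UMIs per spot (log2). So 48 of 49 list medians moved by more than their spread between sections as UMIs per spot and 35 without TMM, but 0 changed side of the median of all genes under either. With the RZ beyond 8 steps 17 moved and with the limit of 0.3 9, and 0 changed side. Complement changed side with no filter on low counts, with the study's spot filter and without the 5 dpi section labelled male, and hypoxia without that labelled female. With 3 hearts, 1 section per heart and 1 heart at 3 dpi, the spread between hearts of 1 time point is known only from the 5 dpi pair.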
